A study of Arabidopsis thaliana with 12 samples.

Results

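The root transcriptomes of wild type (WT) and psp1 Arabidopsis thaliana were compared across all genes, with 3 root libraries per genotype out of the 12 libraries of the study. All plants were of the Columbia ecotype. WT carried no stated change, and psp1 is labelled as a mutant of phosphoserine phosphatase, without a named allele. The titles of the psp1 samples begin with HS where those of WT begin with WT, and the labels do not explain HS. Plants of both genotypes grew upright on 0.8% agar with diluted Murashige and Skoog medium at 20 to 22 °C, under 16 h of light and 8 h of dark, and roots were cut off when the night ended. The replicates are labelled as independent biological samples, and the labels give no treatment that separated the groups other than genotype.

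Phosphoserine phosphatase carries out the last step of the plastidial phosphorylated pathway of serine synthesis, after phosphoglycerate dehydrogenase and phosphoserine aminotransferase. Leaves also make serine by photorespiration, whereas roots lack that source and rely more on the phosphorylated pathway. Serine gives O-acetylserine, the carbon skeleton onto which sulfide is fixed as cysteine, and it also feeds tryptophan, glycine, one-carbon units and membrane lipids. The comparison asks what the roots of a plant with a defect in that pathway express differently.

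Values are estimated counts in CPM, a unit that scales each library by its total, given for libraries 1, 2 and 3 of each group in turn. A log2 fold change is psp1 over WT from the edgeR exact test, ± a standard error taken from how far the 3 libraries of a group scatter. A gene is said to have risen or fallen when its Benjamini-Hochberg adjusted p was under 0.01, the level named in the labels. All called genes given with values per library had their 3 psp1-labelled libraries wholly above or wholly below the 3 WT libraries. Library totals were 7445059, 9122881 and 9590308 counts in WT roots and 5873935, 4920392 and 4191768 counts in the root libraries labelled psp1. Depth therefore separated the genotypes, at an exact permutation p of 0.1, the smallest that 3 against 3 libraries allow. With every library thinned to the same total, 2891 genes were called in place of 3172. On the first 2 principal components, which held 56.1% and 20.74% of the variance, the first separated the genotypes and the second set psp1 library 3 (49.93) apart from psp1 libraries 1 and 2 (-27.86 and -39.34). Without that library 3288 genes were called, and 8 of the 186 named genes that were called lost their call.

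The gene named in the mutant was examined first. PSP1 (AT1G18640; chromosome 1, 6416169 to 6418693, minus strand) had 167, 158 and 141 CPM in WT and 114, 122 and 145 CPM in psp1-labelled roots. The groups overlapped, and the difference of -0.40 ± 0.13 (adjusted p = 0.0275) was not called, although it was called without psp1 library 3 (-0.52, adjusted p = 0.00189). In the aerial part PSP1 was higher in the libraries labelled psp1, at 2.29 ± 0.26, so the genotype is taken from the labels and directions are those of the labels. Reads were assigned to coding sequences, and whether the transcript is whole cannot be read from them.

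The tissue labels were checked against marker genes. The 27 leaf photosynthesis genes summed to between 1340 and 1409 CPM in WT roots and between 768 and 1130 CPM in psp1-labelled roots, against 86327 to 95052 CPM in the WT aerial part. The 10 root markers summed to 5007 to 5833 CPM in WT roots and 3341 to 4447 CPM in psp1-labelled roots. None of the 9 flower and seed markers had enough counts to be tested. In bulk tissue, fewer cells of a type and less RNA per cell cannot be told apart, which holds for every result here. The part of these marker shifts in the results was not tested.

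Of 17793 genes with enough counts to be tested, 3172 differed between the genotypes (17.8%), of which 1552 were higher in psp1-labelled roots (8.72% of those tested) and 1620 were lower (9.1%). Rises were larger than falls. Changes of at least 4-fold numbered 246 upward and 109 downward, and changes of at least 16-fold numbered 45 upward and 8 downward. Calls that were also at least 2-fold made up 8.55% of the genes tested. Genes that fell supplied 25.6% of the counts in WT roots and 14% in psp1-labelled roots, while genes that rose supplied 7.77% and 15.0%. Scaling by library totals instead of TMM factors shifted the median of all genes by 0.11 on the log2 scale and moved the split to 2142 rises and 1182 falls (64.4% rises against 48.9%). No named gene that was called changed direction under that scaling. In 40.4% of all tested genes, called or not, the 3 libraries of one genotype lay wholly above those of the other. The same held for 3115 of the 3172 called genes, so a lack of overlap is no separate support for a call.

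**Figure D1:**
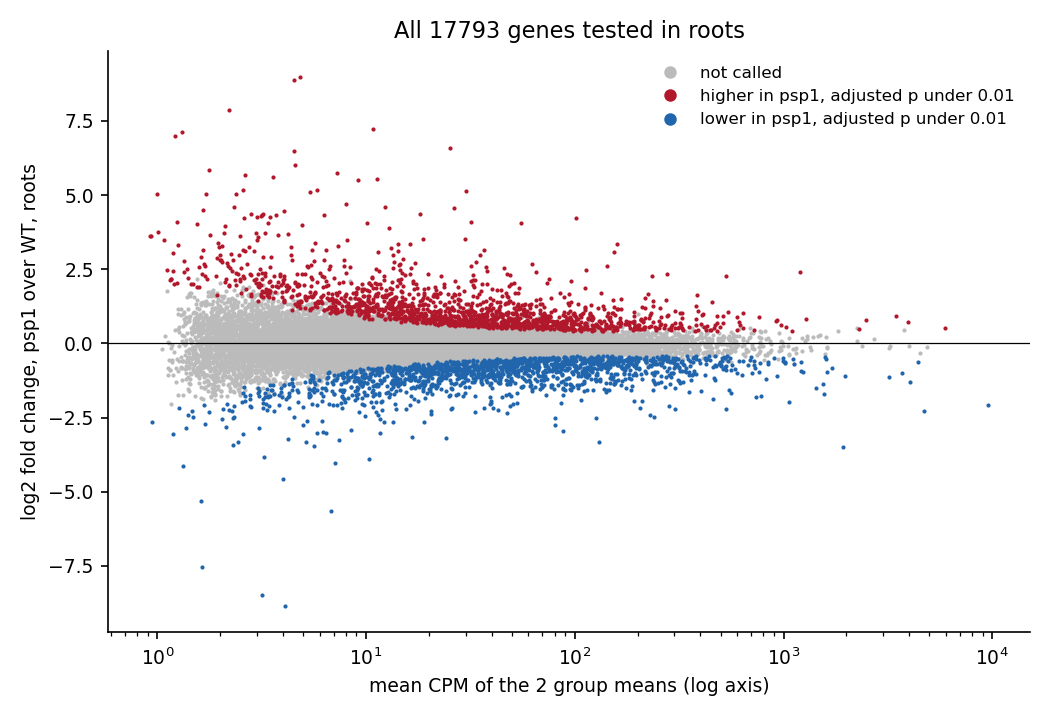
Log2 fold change of psp1 over WT in roots (vertical axis) against the mean CPM of both groups (horizontal, log axis) for the 17793 genes tested; each point is 1 gene. The 1552 genes called higher (red) reach larger fold changes than the 1620 called lower (blue).

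In the phosphorylated pathway itself, 1 of the 5 genes tested rose and the others did not pass the test. PSAT1 (AT4G35630; chromosome 4, 16904059 to 16905722, plus strand), the aminotransferase of the middle step, had 89.2, 102 and 108 CPM in WT and 182, 196 and 195 CPM in psp1-labelled roots, with no overlap, and rose by 0.83 ± 0.09 (adjusted p = 3.38e-08). Of the dehydrogenases of the first step, PGDH1 stood at 0.10 ± 0.13 (adjusted p = 0.667), and PGDH2, which shares 425 identical bases with the locus AT1G17744 and is uncertain, stood at 0.39 ± 0.16 (adjusted p = 0.0416). PGDH3 was under the filter, and PSAT2 stood at 0.18 ± 0.19 (adjusted p = 0.626).

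Genes that interconvert glycine, serine and threonine moved both ways, with 3 of 15 tested members up and 4 down. THA1 (AT1G08630), a threonine aldolase that splits threonine into glycine and acetaldehyde, had 25.3, 13.6 and 19.2 CPM in WT and 2.38, 0.813 and 0.716 CPM in psp1-labelled roots. All psp1-labelled libraries lay below all WT libraries, a change of -3.91 ± 0.52 (adjusted p = 1.26e-19), which was -4.74 without psp1 library 1. Serine hydroxymethyltransferases carry one-carbon units between serine and glycine. The mitochondrial enzyme SHM1 fell from 92, 75.5 and 82.9 CPM in WT to 51.9, 39 and 57.5 CPM in psp1-labelled roots (-0.86 ± 0.20, adjusted p = 1.76e-05), whereas SHM7 rose from 32.1, 38.4 and 34.9 CPM in WT to 83.9, 73 and 69.2 CPM in psp1-labelled roots (0.99 ± 0.11, adjusted p = 1.54e-08) and SHM3, the plastidial enzyme, rose by 0.77 ± 0.12 (adjusted p = 4.59e-06). Of 11 photorespiration genes, 1 rose, a share near the 8.72% over all genes tested, and 2 fell. The rise was lost without WT library 1 or 2 or psp1 library 1 or 2, and 1 fall was lost without WT library 2 or psp1 library 2. One of the falls, AT1G80380, annotated as a P-loop hydrolase, had 129.6, 146 and 139 CPM in WT and 67.4, 68.5 and 71.6 CPM in psp1-labelled roots, a change of -1.11 ± 0.05 (adjusted p = 2.12e-14).

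**Figure D2:**
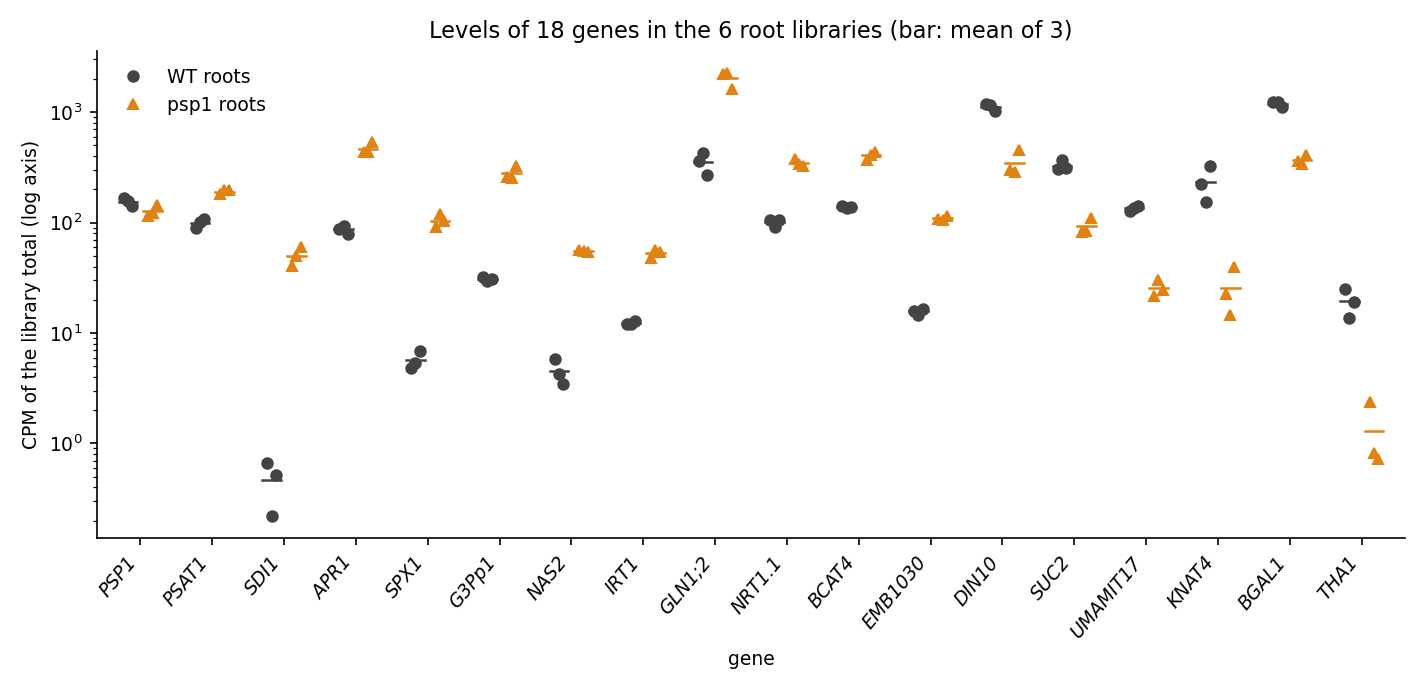
CPM (log axis) of 18 genes in the 3 WT (circles) and 3 psp1-labelled (triangles) root libraries, with a bar at each mean of 3. PSP1, which was not called, overlaps between the genotypes. The other 17 genes, all called, do not, which holds for 3115 of the 3172 called genes.

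In the sulfur deficiency list, 15 members were tested, of which 13 were called higher and 0 lower, with a median log2 fold change of 1.69 beside 0.01 over all genes tested. SDI1 (AT5G48850; chromosome 5, 19805437 to 19807853, minus strand), a repressor of aliphatic glucosinolate synthesis under sulfur shortage, had 0.672, 0.219 and 0.521 CPM in WT and 40.3, 49.4 and 60.6 CPM in psp1-labelled roots. The lowest psp1-labelled library stood far above the highest WT library (6.6 ± 0.33, adjusted p = 8.61e-75). APR1 and APR2 encode adenylylsulfate reductases, which control the flow through sulfate reduction. APR1 had 88.4, 93 and 78.7 CPM in WT and 439.9, 434 and 531 CPM in psp1-labelled roots, a rise of 2.33 ± 0.12 (adjusted p = 2.34e-52). APR2 had 56.8, 63.8 and 57.6 CPM in WT and 206, 223 and 193 CPM in psp1-labelled roots, a rise of 1.69 ± 0.06 (adjusted p = 5.24e-33). The SDI1 relative AT1G04770 had 17.1, 22.6 and 16.2 CPM in WT and 75.9, 89.6 and 75.6 CPM in psp1-labelled roots (2.0 ± 0.15, adjusted p = 1.87e-26).

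Of 10 tested sulfate transporters 6 rose and 0 fell. Gene lists can share members, and a shared gene is counted in each of its lists. SULTR1;2, SULTR2;1 and SULTR4;2 are also among the 13 rises of the sulfur deficiency list. So are APR1, APR2, APR3, SHM7 and GGCT2;1, which the lists of sulfate reduction, of glycine and serine, and of glutathione count again. SULTR1;3 (AT1G22150), known as a phloem sulfate transporter, had 0.537, 0.438 and 0.104 CPM in WT and 13.1, 19.1 and 21.7 CPM in psp1-labelled roots, and rose by 5.51 ± 0.39 (adjusted p = 2.69e-30). Its WT counts were few. SULTR1;2, the main uptake carrier of the root surface, had 69.2, 73.3 and 84.1 CPM in WT and 156, 173 and 158 CPM in psp1-labelled roots (0.99 ± 0.09, adjusted p = 6.12e-11), and SULTR2;1, which moves sulfate through the vascular tissue, had 77.2, 56.8 and 56.6 CPM in WT and 159, 165 and 155 CPM in psp1-labelled roots (1.22 ± 0.15, adjusted p = 5.11e-13). The vacuolar exporter SULTR4;2 rose by 1.21 ± 0.17 (adjusted p = 3.78e-08).

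The list of sulfate reduction and cysteine synthesis, which includes the reductases, gave 6 rises and 1 fall among 23 tested members, 3 of the rises being APR genes. The fall was lost on leaving out WT library 1 or 3 or psp1 library 1 or 2. SERAT3;2 (AT4G35640), a serine acetyltransferase that makes O-acetylserine, rose from 0.269, 1.1 and 0.834 CPM in WT to 7.15, 7.32 and 4.29 CPM in psp1-labelled roots (2.93 ± 0.46, adjusted p = 2.64e-07). APK1, an adenylylsulfate kinase that supplies the sulfate donor of sulfotransferases, rose from 61, 99.6 and 62.3 CPM in WT to 139, 148 and 202 CPM in psp1-labelled roots (1.03 ± 0.28, adjusted p = 8.47e-06). Glutathione genes gave 4 rises and 0 falls among 9, and 2 rises without WT library 1 or 3. GGCT2;2 belongs to the gamma-glutamyl cyclotransferases, which break glutathione down, and it rose by 1.03 ± 0.22 (adjusted p = 2.8e-06). Glutathione transferases gave 9 rises and 4 falls among 33 (2 falls without WT library 1 or psp1 library 2), with GSTU27 at 1.79 ± 0.18 (adjusted p = 3.8e-18), GSTU10 at 1.39 ± 0.17 (adjusted p = 1.53e-15) and GSTU25 at 1.32 ± 0.16 (adjusted p = 9.01e-15). Log2 fold changes of the tested members ran from -2.06 to 3.04. The summed level of the list was lower in psp1-labelled roots, at 5597 to 9445 CPM against 15385 to 19859 CPM in WT roots.

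In methionine metabolism 7 of 20 tested genes rose and 3 fell. MS2 (AT3G03780), a cytosolic methionine synthase, had 344, 348 and 323 CPM in WT and 688, 642 and 735 CPM in psp1-labelled roots (0.91 ± 0.07, adjusted p = 1.44e-10). SAHH2, which clears S-adenosylhomocysteine after methyl transfer, rose by 0.94 ± 0.13 (adjusted p = 9.22e-09), and the homocysteine methyltransferase HMT1 rose by 1.23 ± 0.29 (adjusted p = 1.57e-05). AK3 (AT3G02020), an aspartate kinase at the entry to methionine, threonine and lysine synthesis, had 99.3, 111 and 104 CPM in WT and 321, 343 and 327 CPM in psp1-labelled roots. Its groups lay well apart, with a rise of 1.54 ± 0.04 (adjusted p = 1.79e-30).

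Genes that build aliphatic glucosinolates, the sulfur-rich defence compounds derived from methionine, rose in 17 of 23 tested cases and fell in 1, with a median of 1.02. The 1 fall was lost without WT library 2 or 3 or psp1 library 2. BCAT4, the transaminase that starts chain elongation, had 141, 135 and 138 CPM in WT and 372, 409.5 and 439 CPM in psp1-labelled roots (1.45 ± 0.08, adjusted p = 5.21e-25). CYP79F2, which makes the aldoximes, had 75.5, 93.6 and 76.1 CPM in WT and 245, 227 and 279 CPM in psp1-labelled roots (1.51 ± 0.13, adjusted p = 1e-21). IMD1, a dehydrogenase of chain elongation, rose by 1.26 ± 0.11 (adjusted p = 2.12e-17), and GSTU20 of the core pathway rose from 19.5, 21.7 and 15.1 CPM in WT to 72.7, 65.2 and 111 CPM in psp1-labelled roots (2.04 ± 0.28, adjusted p = 7.51e-17). The indolic branch and the shared core were divided, with 4 rises and 3 falls among 18. CYP79B3, which turns tryptophan into its aldoxime, fell from 258, 274 and 281 CPM in WT to 105, 109.5 and 108 CPM in psp1-labelled roots (-1.45 ± 0.04, adjusted p = 1.94e-26), and the methyltransferase IGMT1 fell by 0.95 ± 0.14 (adjusted p = 1.8e-08). The shared core genes GGP1 (1.01 ± 0.15, adjusted p = 1.06e-09) and UGT74B1 (0.74 ± 0.03, adjusted p = 1.25e-07) rose. Of 11 tryptophan synthesis genes 1 rose, TRP1 (0.78 ± 0.07, adjusted p = 3.78e-06), a share near the 8.72% over all genes tested.

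**Figure D3:**
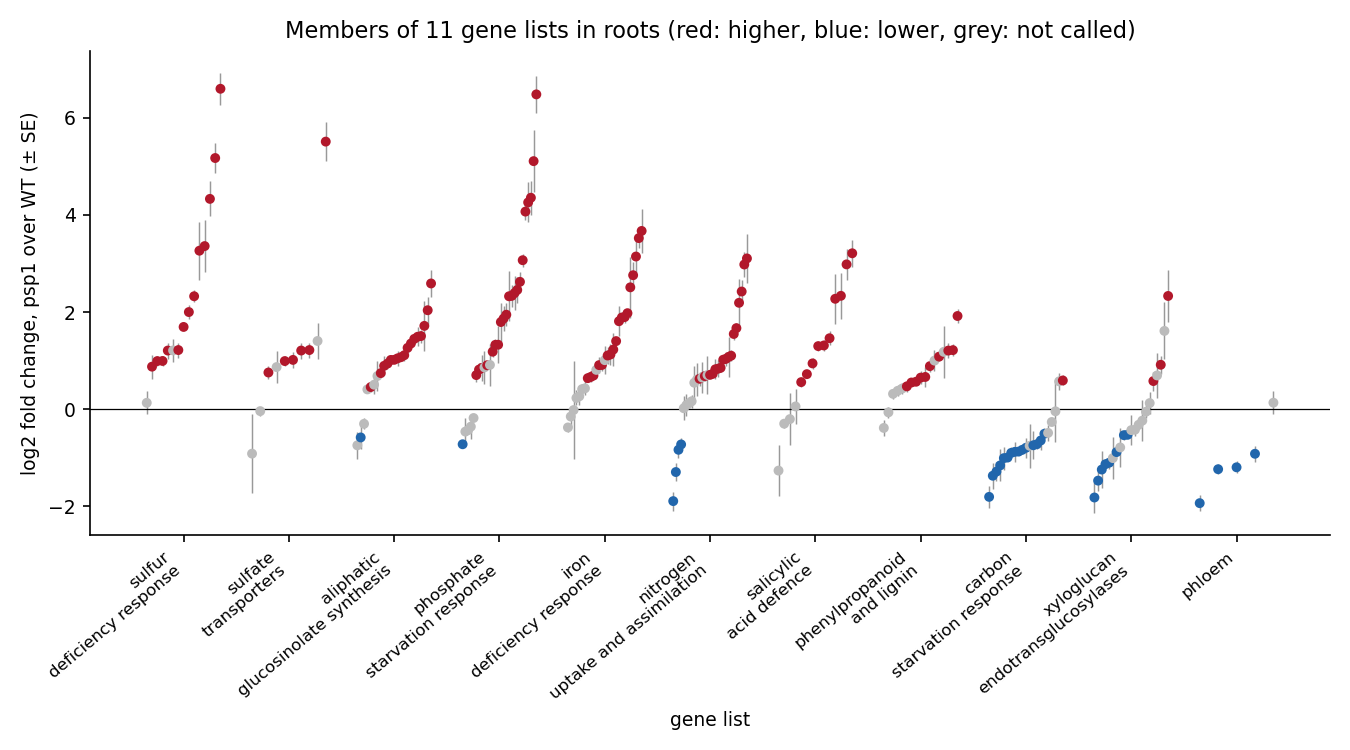
Log2 fold change of psp1 over WT in roots, with its standard error, for every tested member of 11 gene lists in order of size within each list; red points were called higher, blue lower, grey neither. The sulfur, phosphate and iron lists hold few or no blue points, and the carbon starvation list holds 1 red point.

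Of 28 tested phosphate starvation genes 21 rose and 1 fell, with a median of 1.56, and 2 fell without psp1 library 3. Phosphate status in plants is read by SPX proteins, which hold back PHR transcription factors that bind the P1BS element GNATATNC. SPX1 (AT5G20150; chromosome 5, 6802282 to 6803655, plus strand), a phosphate sensor, had 4.84, 5.37 and 6.88 CPM in WT and 90.6, 118 and 104 CPM in psp1-labelled roots, a rise of 4.07 ± 0.18 (adjusted p = 9.84e-84). G3Pp1 (AT3G47420; chromosome 3, 17472297 to 17475274, minus strand), a glycerol-3-phosphate permease, had 32, 29.8 and 30.6 CPM in WT and 256, 253 and 326 CPM in psp1-labelled roots, a rise of 3.07 ± 0.13 (adjusted p = 8.61e-75). The uptake carrier PHT1;4 had 27.7, 41.3 and 42.2 CPM in WT and 240.4, 235 and 266 CPM in psp1-labelled roots (2.62 ± 0.20, adjusted p = 1.85e-48). The pyrophosphatase PPSPASE1 had 1.07, 2.41 and 1.15 CPM in WT and 37.8, 39.2 and 27.2 CPM in psp1-labelled roots (4.36 ± 0.35, adjusted p = 3.85e-41), and the related phosphatase PEPC1 (AT1G17710) had 0, 0.767 and 0 CPM in WT and 10.7, 9.15 and 11.7 CPM in psp1-labelled roots (5.11 ± 0.63, adjusted p = 1.02e-19). All 7 WT counts of PEPC1 came from library 2. Its value was 9.01 without WT library 2, which left 0 counts in WT, and 4.5 without WT library 3. In each of these genes all psp1-labelled libraries stood above all WT libraries. PHT1;1 and PHT1;2 are 97.7% identical over their coding sequence, so their separate values (1.18 ± 0.11, adjusted p = 6.42e-15 and 4.26 ± 0.41, adjusted p = 3.69e-11) are uncertain.

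The 250 bases before the annotated gene start (TAIR10.1, RefSeq annotation) were searched for P1BS as GNATATNC, which reads the same on both strands. It was present in 5.36% of the promoters of 17687 tested genes, in 6.64% of those of genes that rose and in 5.65% of those of genes that fell. Among the phosphate genes that rose it was present in 6 of 21 (28.6%), namely PPSPASE1, GDPD1, SPX3, PLDP2, NPC4 and PHT1;2. Over all 28 tested phosphate genes, risen or not, it was present in 7 (25%). In the tested sulfur deficiency genes it was present in 3 of 15 (20%). Whether the element goes with the rise was not tested. SPX1, G3Pp1 and PHT1;4 held no match in this window. The promoters of PPSPASE1, GDPD1 and SPX3 are printed 5′ to 3′ on the gene's strand, with the element in capitals, because they hold it and their genes rose. GDPD1 and SPX3 were chosen after their values were seen.
PPSPASE1, chr1:27466349-27466598, minus strand: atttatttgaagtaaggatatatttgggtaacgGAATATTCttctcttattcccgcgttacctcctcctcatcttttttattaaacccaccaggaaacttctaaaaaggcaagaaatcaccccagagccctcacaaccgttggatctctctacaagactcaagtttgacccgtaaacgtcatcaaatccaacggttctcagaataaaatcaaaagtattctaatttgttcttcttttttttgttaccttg
GDPD1, chr3:350011-350260, minus strand: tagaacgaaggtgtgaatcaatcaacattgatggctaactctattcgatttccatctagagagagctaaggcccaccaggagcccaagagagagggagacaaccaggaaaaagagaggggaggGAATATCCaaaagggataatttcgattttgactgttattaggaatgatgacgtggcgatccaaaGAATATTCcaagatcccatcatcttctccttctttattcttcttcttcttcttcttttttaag
SPX3, chr2:18606160-18606409, plus strand: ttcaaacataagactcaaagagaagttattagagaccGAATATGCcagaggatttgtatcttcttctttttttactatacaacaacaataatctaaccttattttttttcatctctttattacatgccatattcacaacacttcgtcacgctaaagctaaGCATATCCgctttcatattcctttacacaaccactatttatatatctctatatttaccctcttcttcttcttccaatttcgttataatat
The element starts at base -217 from the gene start in PPSPASE1, at -127 and -63 in GDPD1, and at -213 and -90 in SPX3. GDPD1, a phosphodiesterase that frees glycerol-3-phosphate from lipid head groups, had 8.33, 15.5 and 9.07 CPM in WT and 66.9, 65 and 63 CPM in psp1-labelled roots (2.46 ± 0.26, adjusted p = 2.51e-26). SPX3, a relative of SPX1, had 2 counts over the 3 WT libraries and 139 over the psp1-labelled libraries, a ratio of 121 per count sequenced with a 95% exact counting interval from 33.0 to 1012. A match is a description of the letters and does not show binding.

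The core of the sulfur-responsive element, GAGAC on either strand, was present in 25.1% of all promoters of tested genes and in 2 of the 13 sulfur deficiency genes that rose (15.4%). SDI1 is printed because it had the smallest adjusted p of that list, with its match in capitals (reverse strand, first base at -23).
SDI1, chr5:19807854-19808103, minus strand: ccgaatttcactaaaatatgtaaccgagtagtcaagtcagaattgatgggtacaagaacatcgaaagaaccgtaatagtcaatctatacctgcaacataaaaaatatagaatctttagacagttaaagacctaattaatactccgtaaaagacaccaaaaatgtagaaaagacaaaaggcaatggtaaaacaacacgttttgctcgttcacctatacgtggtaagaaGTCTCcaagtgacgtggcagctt
APR1 and APR2 held no match in this window.

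Iron deficiency genes rose in 18 of 27 tested cases and fell in 0, with a median of 1.01. NAS2 (AT5G56080), a synthase of the metal chelator nicotianamine, had 5.78, 4.27 and 3.44 CPM in WT and 56.4, 55.1 and 54.4 CPM in psp1-labelled roots (3.52 ± 0.21, adjusted p = 2.23e-52). IRT1, the ferrous iron importer of the root epidermis, had 12, 12.2 and 12.9 CPM in WT and 48, 56.1 and 53.9 CPM in psp1-labelled roots (1.98 ± 0.07, adjusted p = 1.98e-24). F6'H1, which makes the precursor of the iron-mobilising coumarins, had 225, 227 and 257 CPM in WT and 699, 646 and 679 CPM in psp1-labelled roots (1.4 ± 0.08, adjusted p = 3.93e-23). CYP82C4, which oxidises those coumarins, rose from 8.6, 8.22 and 7.61 CPM in WT to 76.3, 62.2 and 39.6 CPM in psp1-labelled roots (2.76 ± 0.28, adjusted p = 3.12e-25), with part of its sequence shared with CYP82C3. None of these 4 overlapped between the genotypes. Among 4 tested ferritins and related genes, FER1 rose by 0.54 ± 0.14 (adjusted p = 0.00208) and FER4 fell by 1.08 ± 0.30 (adjusted p = 0.000596). Without WT library 1 neither was called (adjusted p = 0.0352 for FER1 and 0.0173 for FER4), and FER1 was also lost without WT library 3, psp1 library 2 or psp1 library 3.

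Zinc and copper genes were divided, with 5 rises and 3 falls among 13. The zinc exporter HMA2 had 26.2, 21.8 and 21.2 CPM in WT and 81, 73.6 and 87.3 CPM in psp1-labelled roots (1.7 ± 0.13, adjusted p = 6.31e-21), the copper reductase FRO4 rose by 1.86 ± 0.20 (adjusted p = 1.69e-10), and the zinc importer ZIP3 rose by 1.56 ± 0.25 (adjusted p = 1.27e-07).

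Nitrogen uptake and assimilation genes rose in 17 of 29 tested cases and fell in 4, with a median of 0.71. GLN1;2 (AT1G66200; chromosome 1, 24655115 to 24657703, minus strand), a cytosolic glutamine synthetase, had 364, 423 and 273 CPM in WT and 2234, 2267 and 1629.6 CPM in psp1-labelled roots (2.42 ± 0.23, adjusted p = 2.26e-35). NRT1.1, the dual-affinity nitrate transporter and sensor, had 106, 90.8 and 107 CPM in WT and 376, 338 and 328 CPM in psp1-labelled roots (1.67 ± 0.11, adjusted p = 1.51e-29). NRT2.1, the main high-affinity nitrate carrier, had 3.76, 2.19 and 2.61 CPM in WT and 21.3, 30.1 and 21.2 CPM in psp1-labelled roots (2.98 ± 0.27, adjusted p = 8.98e-21). All 3 were higher in every psp1-labelled library. LBD39, a repressor of nitrate-induced genes, fell from 202, 140.3 and 156 CPM in WT to 52.6, 42.3 and 49.6 CPM in psp1-labelled roots (-1.89 ± 0.20, adjusted p = 2.33e-24).

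UMAMIT transporters, which export amino acids, mostly fell among those called, with 2 rises and 8 falls among 30 tested. UMAMIT17 (AT4G08300) had 128, 136 and 141 CPM in WT and 21.8, 30.1 and 24.3 CPM in psp1-labelled roots (-2.53 ± 0.13, adjusted p = 4.19e-51), the smallest adjusted p of any fall. UMAMIT20 had 296, 284 and 408 CPM in WT and 86.7, 95.9 and 54.9 CPM in psp1-labelled roots (-2.17 ± 0.29, adjusted p = 1.02e-22). UMAMIT36 went the other way, from 0.806, 0.548 and 0.313 CPM in WT to 15.3, 14.2 and 16.7 CPM in psp1-labelled roots (4.68 ± 0.26, adjusted p = 2.48e-28), and UMAMIT38 rose by 1.67 ± 0.27 (adjusted p = 3.7e-10).

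Genes that mark carbon starvation fell in 15 of 21 tested cases and rose in 1 (2 without WT library 1 or psp1 library 3), with a median of -0.80. Sugar shortage normally raises these genes through the kinase SnRK1. DIN10 (AT5G20250; chromosome 5, 6833564 to 6836862, plus strand), a raffinose synthase relative induced in the dark, had 1181, 1161 and 1030.3 CPM in WT and 302, 286 and 451 CPM in psp1-labelled roots (-1.81 ± 0.22, adjusted p = 1.03e-20). TPS8, a class II trehalose phosphate synthase protein, had 252, 252 and 260.4 CPM in WT and 137, 159 and 155 CPM in psp1-labelled roots (-0.87 ± 0.07, adjusted p = 8.26e-10). TPS11, of the same class, had 212, 233 and 224 CPM in WT and 118, 116 and 127 CPM in psp1-labelled roots (-1.0 ± 0.06, adjusted p = 1.29e-12). AKINBETA1, a subunit of SnRK1, had 50.5, 46.8 and 40.04 CPM in WT and 24.3, 19.9 and 16 CPM in psp1-labelled roots (-1.29 ± 0.20, adjusted p = 4.04e-09).

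Phloem genes fell in 4 of 5 tested cases. SUC2 (AT1G22710; chromosome 1, 8030587 to 8033156, minus strand), the sucrose loader of companion cells, had 306, 366 and 309.7 CPM in WT and 81.5, 84.1 and 111 CPM in psp1-labelled roots (-1.94 ± 0.16, adjusted p = 3.77e-31). SEOA and SEOB, which form the sieve element filaments, fell by 1.24 ± 0.11 (adjusted p = 4.13e-16) and 1.2 ± 0.12 (adjusted p = 5.23e-14), and the callose synthase CALS7 fell by 0.92 ± 0.16 (adjusted p = 8.04e-07). The fifth, the phloem regulator APL, stood at 0.13 ± 0.24 (adjusted p = 0.786). The summed level of the 5 was 747 to 875 CPM in WT roots and 309 to 359 CPM in psp1-labelled roots. None of 6 xylem and secondary wall genes was called by the edgeR exact test, quasi-likelihood test or DESeq2, 0 had an unadjusted p under 0.05, and their log2 fold changes lay between -0.29 and 0.04, and the difference between phloem and xylem was not tested.

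Nuclear photosynthesis genes, expressed at low level in roots, fell in 8 of 26 tested cases and rose in 0. Without psp1 library 2 the falls numbered 5 and without psp1 library 3 they numbered 10. LHCB3, an antenna protein of photosystem II, fell from 131, 118 and 134 CPM in WT to 45.1, 43.7 and 56.3 CPM in psp1-labelled roots (-1.51 ± 0.14, adjusted p = 1.18e-19), as did LHCA1 (-1.47 ± 0.12, adjusted p = 1.15e-10), LHCA3 (-1.18 ± 0.12, adjusted p = 3.56e-11) and LHCB5 (-1.4 ± 0.26, adjusted p = 7.11e-11). These genes serve here also as the leaf markers, and the part of leaf tissue in this result was not tested. Of 54 tested plastid-encoded genes 7 fell and 0 rose, and 4 fell without WT library 3. The share of falls was near the 9.1% over all genes tested. Some of the 54 are pairs with the same counts in every library, such as ATCG00860 and ATCG01280, so not all are separate measurements. None of 37 tested mitochondrion-encoded genes was called by the edgeR exact test, quasi-likelihood test or DESeq2, and 5 had an unadjusted p under 0.05. Without WT library 3 there were 3 calls and without psp1 library 1 there were 2. Organelle transcripts mostly lack long poly(A) tails, and the libraries were enriched for polyadenylated RNA.

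**Figure D4:**
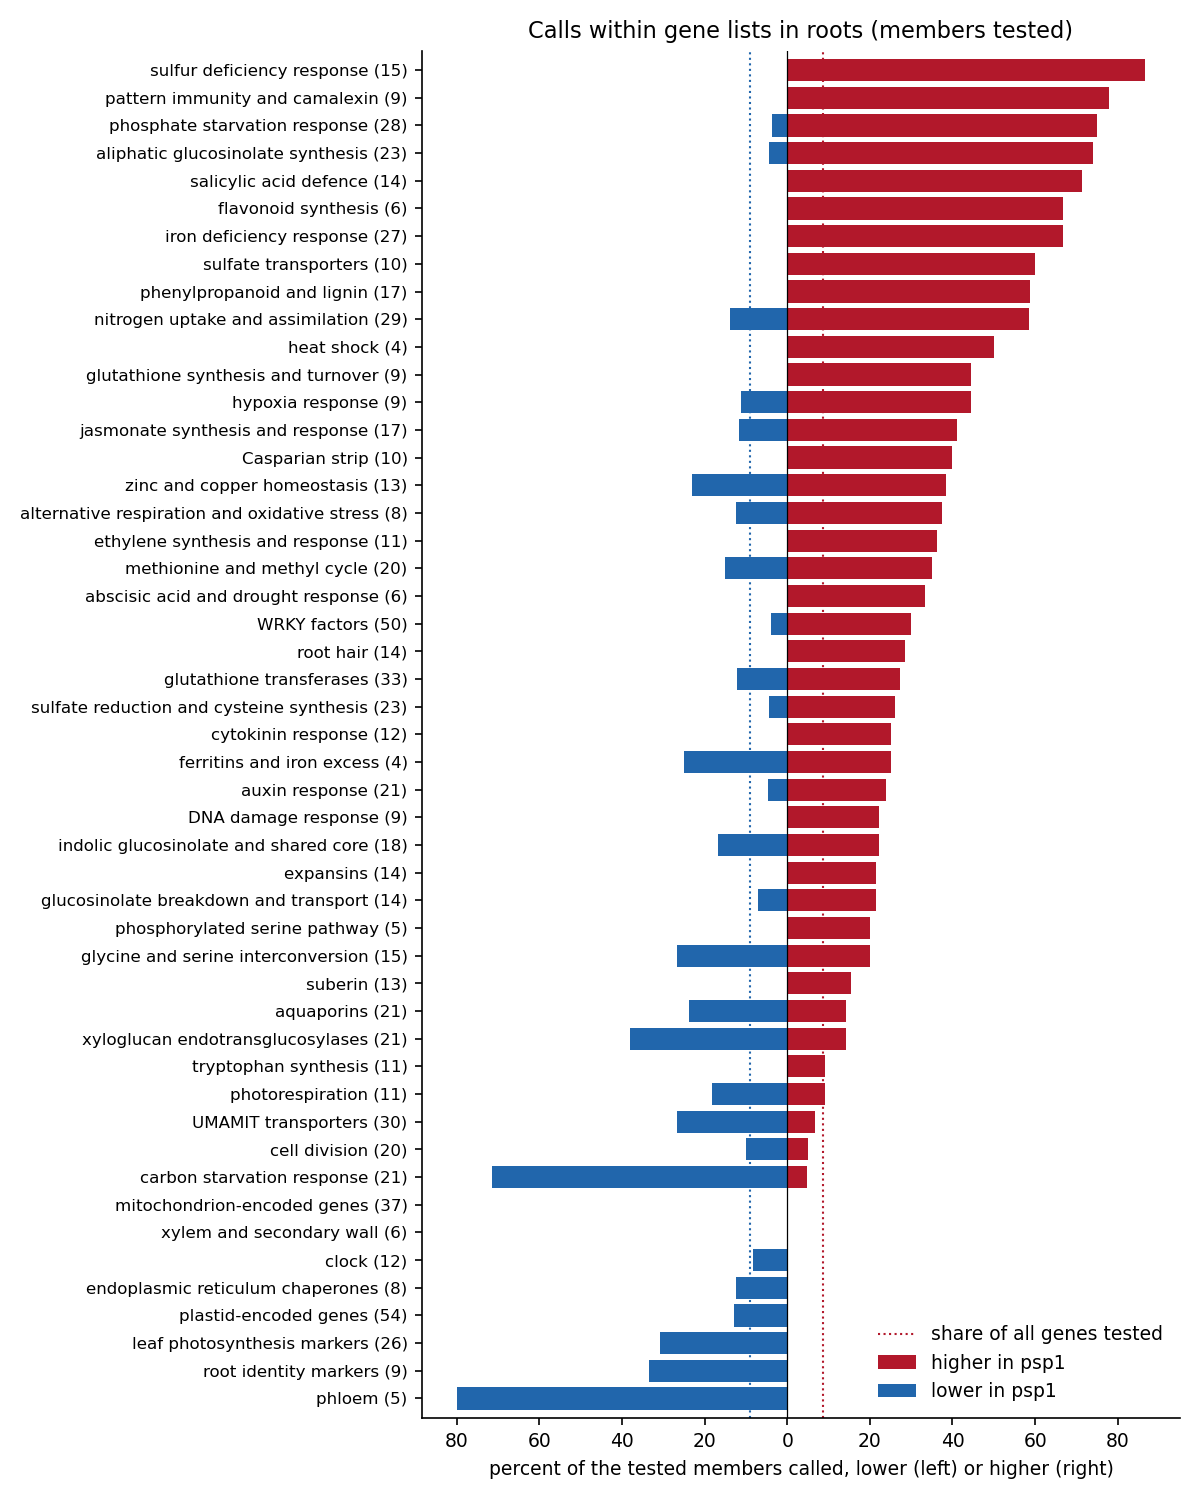
Percent of the tested members (number in brackets) called higher (red, right) or lower (blue, left) in psp1-labelled roots for 49 gene lists; dotted lines mark the 8.72% and 9.1% over all genes tested. The sulfur, immunity, phosphate and aliphatic glucosinolate lists stand at the top, and the phloem and carbon starvation lists reach farthest to the left.

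Of 14 tested genes of salicylic acid defence 10 rose and 0 fell, with a median of 1.12, and 7 of 9 genes of pattern immunity and camalexin rose and 0 fell. FMO1 (AT1G19250), which makes the immune signal N-hydroxypipecolic acid, had 8.73, 8.11 and 5.42 CPM in WT and 69.5, 76.2 and 43.4 CPM in psp1-labelled roots (2.98 ± 0.31, adjusted p = 1.81e-28). PBS3, which acts in salicylic acid synthesis, had 3.36, 2.19 and 1.67 CPM in WT and 22.3, 22.2 and 27 CPM in psp1-labelled roots (3.21 ± 0.28, adjusted p = 6.97e-24). WRKY70 and CBP60G, regulators of that branch, rose by 1.46 ± 0.14 (adjusted p = 5.98e-14) and 1.31 ± 0.12 (adjusted p = 1.3e-10). PAD3, the last enzyme of camalexin synthesis, had 29.5, 28.8 and 28.2 CPM in WT and 81.9, 92.3 and 58.4 CPM in psp1-labelled roots (1.32 ± 0.19, adjusted p = 5.51e-11), CYP71A12 rose by 0.91 ± 0.10 (adjusted p = 7.94e-10), and the oxidase RBOHD rose by 0.78 ± 0.10 (adjusted p = 3.78e-07). The synthesis gene ICS1 (0.06 ± 0.36, adjusted p = 0.952) and the marker genes PR2 (-0.21 ± 0.54, adjusted p = 0.778) and PR5 (-1.27 ± 0.53, adjusted p = 0.0957) did not pass the test, and PR1 had too few counts to be tested. WRKY transcription factors gave 15 rises and 2 falls among 50 (1 fall without WT library 1 or 3 or psp1 library 2), WRKY59 standing at 3.24 ± 0.22 (adjusted p = 1.89e-11).

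Jasmonate genes gave 7 rises and 2 falls among 17. LOX3, a lipoxygenase of jasmonate synthesis, had 0.134, 0.329 and 0.209 CPM in WT and 5.28, 5.28 and 5.73 CPM in psp1-labelled roots (4.36 ± 0.16, adjusted p = 2.93e-12), and the repressor JAZ1 had 19.9, 27.2 and 23.9 CPM in WT and 82.7, 79.3 and 87.3 CPM in psp1-labelled roots (1.7 ± 0.13, adjusted p = 9.45e-22). The storage proteins VSP2 and VSP1, used as jasmonate output markers of shoots, fell instead, VSP2 from 77.5, 85.7 and 87 CPM in WT to 25, 27.2 and 15 CPM in psp1-labelled roots (-2.0 ± 0.26, adjusted p = 1.56e-21) and VSP1 as well (-1.43 ± 0.15, adjusted p = 3.07e-10). Of 11 ethylene genes 4 rose, or 2 without WT library 3, with the ACC synthase ACS6 at 0.86 ± 0.10 (adjusted p = 3.44e-08) and EBF1 at 0.58 ± 0.06 (adjusted p = 7.65e-05).

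Auxin genes gave 5 rises and 1 fall among 21, a count that fell to 2 rises without WT library 1, without WT library 3 or without psp1 library 1, and to 3 without psp1 library 3. There were 2 falls without psp1 library 1. GH3.3, which conjugates auxin to amino acids, had 4.3, 3.18 and 2.61 CPM in WT and 18.6, 16.5 and 24.1 CPM in psp1-labelled roots (2.45 ± 0.26, adjusted p = 8.11e-14). GH3.17 rose by 0.95 ± 0.16 (adjusted p = 3.17e-08), and IAA13, an auxin response repressor, fell from 224, 192 and 240.1 CPM in WT to 106, 83.3 and 82.3 CPM in psp1-labelled roots (-1.38 ± 0.16, adjusted p = 2.38e-16). Of 12 cytokinin genes 3 rose, or 1 without WT library 2, WT library 3 or psp1 library 1 and by the quasi-likelihood test or DESeq2, with the response regulator ARR4 at 0.86 ± 0.17 (adjusted p = 1.61e-05).

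Phenylpropanoid genes rose in 10 of 17 tested cases and fell in 0, with a median of 0.65. 4CL1, which activates coumarate, had 101, 85.2 and 77.1 CPM in WT and 219.6, 212 and 228 CPM in psp1-labelled roots (1.22 ± 0.12, adjusted p = 5.49e-15). COMT1 and CAD4, enzymes of monolignol synthesis, rose by 1.08 ± 0.09 (adjusted p = 1.05e-13) and 1.21 ± 0.16 (adjusted p = 4.5e-13), and AT4G36220, annotated as ferulic acid 5-hydroxylase 1, rose by 1.92 ± 0.14 (adjusted p = 1.45e-13). UGT72E2 (AT5G66690), which glucosylates monolignols, had 79.1, 72.1 and 76.2 CPM in WT and 404, 378 and 399 CPM in psp1-labelled roots (2.27 ± 0.07, adjusted p = 5.26e-60). Of 6 tested flavonoid genes 4 rose, with FLS1, the flavonol synthase, at 2.42, 5.92 and 4.17 CPM in WT and 28.4, 27.6 and 33.9 CPM in psp1-labelled roots (2.72 ± 0.35, adjusted p = 1.1e-19).

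Among genes of the root barriers and surface, Casparian strip genes gave 4 rises among 10, with the peroxidase PER64 at 0.91 ± 0.15 (adjusted p = 1.9e-05); the membrane scaffold genes CASP1 to CASP4, named after their values were seen, stood between -0.28 and 0.00. The count was 2 without WT library 1 or 3, and 0 by the quasi-likelihood test fitted to all 12 libraries (PER64 adjusted p = 0.0111). Suberin genes gave 2 rises among 13, or 1 on leaving out any WT library or psp1 library 2 or 3, with the feruloyl transferase ASFT at 0.78 ± 0.07 (adjusted p = 1.41e-06). Root hair genes gave 4 rises among 14, led by the wall protein LRX1, from 1.34, 2.63 and 1.36 CPM in WT to 9.87, 8.94 and 8.59 CPM in psp1-labelled roots (2.24 ± 0.27, adjusted p = 8.43e-08), and RHS19 (2.8 ± 0.22, adjusted p = 1.85e-06). GL2, one of the root markers, represses hair formation in non-hair cells and fell from 22.8, 14.7 and 22.4 CPM in WT to 12.3, 7.32 and 8.11 CPM in psp1-labelled roots (-1.21 ± 0.31, adjusted p = 0.000203). The 22 root hair genes summed to 254 to 274 CPM in WT roots and 309 to 361 CPM in psp1-labelled roots.

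Genes of wall loosening moved in both directions. Xyloglucan endotransglucosylases, which cut and rejoin wall xyloglucan, gave 3 rises and 8 falls among 21, and 5 falls without psp1 library 2. XTH7 had 59.6, 79.3 and 67.6 CPM in WT and 24.5, 25 and 13.1 CPM in psp1-labelled roots (-1.82 ± 0.31, adjusted p = 1.68e-14), and XTH4 and XTH24 fell by 1.13 ± 0.11 (adjusted p = 5.85e-11) and 1.1 ± 0.14 (adjusted p = 2e-10). Expansins gave 3 rises and 0 falls among 14 (5 rises without psp1 library 3), with EXPA4 at 0.89 ± 0.14 (adjusted p = 6.01e-07). EXPA8 had 0, 0.329 and 0.104 CPM in WT and 3.23, 2.03 and 3.58 CPM in psp1-labelled roots (4.02 ± 0.40, adjusted p = 3.85e-07), with 4 counts in all WT libraries together and a value of 5.14 without WT library 2. Aquaporins gave 3 rises and 5 falls among 21. PIP1C had 757, 797 and 770.3 CPM in WT and 428, 429 and 413 CPM in psp1-labelled roots (-0.98 ± 0.02, adjusted p = 2.98e-13), PIP2A fell by 0.62 ± 0.03 (adjusted p = 1.51e-05), TIP2;3 fell by 1.07 ± 0.15 (adjusted p = 2.4e-08), and the boric acid channel NIP5;1 rose by 1.56 ± 0.23 (adjusted p = 4.8e-07).

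Cell division genes gave 1 rise and 2 falls among 20, but the rise was lost on leaving out any of the 6 libraries and both falls were lost without WT library 3. The share of falls was near the 9.1% over all genes tested, and that of rises was below the 8.72%. The falls numbered 1 without WT library 1, WT library 2 or psp1 library 1. Glucosinolate breakdown and transport genes gave 3 rises and 1 fall among 14, with 2 falls without psp1 library 3. Abscisic acid genes gave 2 rises among 6, which became 0 without WT library 3 and 1 without any other library. Heat shock genes gave 2 rises among 4, and the root markers gave 0 rises and 3 falls among 9. Of 9 DNA damage genes 2 rose, GMI1 from 9.54, 15.7 and 9.7 CPM in WT to 58.2, 55.9 and 51.3 CPM in psp1-labelled roots (2.13 ± 0.22, adjusted p = 2.4e-21) and PARP2 by 1.92 ± 0.24 (adjusted p = 3.41e-07). Outside that list NAC044 (AT3G01600), a transcription factor that acts downstream of the DNA damage regulator SOG1, had 1.75, 1.42 and 1.46 CPM in WT and 65.7, 66.3 and 44.1 CPM in psp1-labelled roots (5.13 ± 0.20, adjusted p = 4.64e-68). SOG1 itself stood at 0.44 ± 0.16 (adjusted p = 0.106). Of 12 clock genes 1 fell, RVE1 (-1.13 ± 0.13, adjusted p = 4.18e-12), and of 8 chaperone genes of the endoplasmic reticulum 1 fell (2 without psp1 library 3), BIP2 (-0.56 ± 0.05, adjusted p = 0.000134), whose copy BIP1 is 97.5% identical. With 1 fall each, the clock and chaperone lists were near the 9.1% of falls over all genes tested. Hypoxia genes gave 4 rises and 1 fall among 9 (2 rises without WT library 3 or psp1 library 1), with the sucrose synthase SUS4 at 71.3, 74.9 and 82.4 CPM in WT and 247, 218 and 221 CPM in psp1-labelled roots (1.48 ± 0.09, adjusted p = 5.2e-24). The fall was in the transcription factor HRE1 (-0.94 ± 0.02, adjusted p = 5.68e-10). The alternative oxidase AOX1A and the external dehydrogenase NDB2 rose by 1.02 ± 0.17 (adjusted p = 5.57e-08) and 0.92 ± 0.19 (adjusted p = 2e-06).

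The largest single changes lay partly outside these lists. NDB4 (AT2G20800), an external NAD(P)H dehydrogenase of mitochondria, had 3 counts over the 3 WT libraries and 327 over the psp1-labelled libraries, a ratio of 190 per count sequenced with a 95% exact counting interval from 64.5 to 927. TIF3C2, annotated as a subunit of translation initiation factor 3, had 0.403, 0.219 and 0.104 CPM in WT and 16.7, 12.8 and 13.1 CPM in psp1-labelled roots (5.74 ± 0.27, adjusted p = 3.09e-30). BCA3, a beta carbonic anhydrase, had 0.403, 0.658 and 0.209 CPM in WT and 19.7, 21.1 and 25.3 CPM in psp1-labelled roots (5.54 ± 0.29, adjusted p = 1.68e-41). Each of the 3 was nearly silent in WT roots. AT2G04050, annotated as a MATE efflux protein, had 2.28, 2.3 and 1.46 CPM in WT and 50.2, 49.4 and 53.2 CPM in psp1-labelled roots (4.55 ± 0.19, adjusted p = 1.88e-69). AT5G13210, annotated as an uncharacterized conserved protein, had 13.4, 6.58 and 9.07 CPM in WT and 193, 200.4 and 187 CPM in psp1-labelled roots and the smallest adjusted p of all genes (4.22 ± 0.30, adjusted p = 1.7e-87). EMB1030 (AT5G22800), annotated as an alanyl-tRNA synthetase, had 16, 14.7 and 16.6 CPM in WT and 107, 106 and 115 CPM in psp1-labelled roots (2.69 ± 0.08, adjusted p = 1.5e-57).

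Among the falls, AT2G39040, annotated as a peroxidase, had 4.7, 7.89 and 6.36 CPM in WT and 0, 0 and 0 CPM in psp1-labelled roots. Against a floor of 3 counts over the 3 psp1-labelled libraries it was at least 32.1-fold lower. AT1G59124, a resistance gene of the CC-NBS-LRR class, also had 0 counts in all psp1-labelled libraries, but its coding sequence is identical to that of AT1G58807 and its value is uncertain. AGP30, an arabinogalactan protein of the wall, had 10.9, 13.6 and 15.5 CPM in WT and 0.511, 0.203 and 0 CPM in psp1-labelled roots (-5.67 ± 0.44, adjusted p = 4.22e-27), and the MADS factor AGL17 had 6.72, 7.78 and 8.65 CPM in WT and 0.170, 0.813 and 0 CPM in psp1-labelled roots (-4.57 ± 0.55, adjusted p = 3.99e-15). AGP30 stood at -6.83 without psp1 library 1 and AGL17 at -6.15 without psp1 library 2. AT5G21940, annotated as a histidine kinase-like protein, was abundant in WT and had 3507, 4140.1 and 2852 CPM in WT and 332, 228 and 443 CPM in psp1-labelled roots (-3.49 ± 0.32, adjusted p = 2.62e-45). The homeobox gene KNAT4 had 225, 153 and 326 CPM in WT and 22.5, 14.4 and 39.8 CPM in psp1-labelled roots (-3.31 ± 0.54, adjusted p = 4.57e-20), and AT5G15150, annotated as homeobox 3, had 43, 43.3 and 43.4 CPM in WT and 5.28, 5.49 and 4.53 CPM in psp1-labelled roots (-3.18 ± 0.07, adjusted p = 2.17e-43). BGAL1, a beta-galactosidase of the wall, had 1230.3, 1236 and 1109 CPM in WT and 361, 342 and 413 CPM in psp1-labelled roots (-1.79 ± 0.10, adjusted p = 8.17e-34), and UDG4, which makes UDP-glucuronate, fell by 1.64 ± 0.07 (adjusted p = 2.11e-32).

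In the aerial part 387 of 15928 tested genes were called (2.43%), with rises in 1.53% and falls in 0.904%. Of 15071 genes tested in both organs, 147 were called in both, which is 5.82% of the root calls and 42.2% of the aerial calls, and 25 of these went in opposite directions. The difference of the effects, tested as an interaction over all 12 libraries with the edgeR quasi-likelihood test, was called for 315 of 18759 genes (1.68%), of which 153 were higher in roots (0.816%) and 162 lower (0.864%). In the aliphatic glucosinolate list 18 of 25 members tested for this difference were called, all higher in roots. BCAT4 stood at -1.14 ± 0.23 in the aerial part, a difference between organs of 2.69 (adjusted p = 9.18e-07), and IMD1 stood at -1.04 ± 0.21 there, a difference of 2.41 (adjusted p = 4.3e-06). AK3 (-0.99 ± 0.23 in the aerial part, difference 2.63, adjusted p = 8.94e-07) and MS2 (-0.74 ± 0.16, difference 1.75, adjusted p = 2.51e-05) also moved in opposite directions. The interaction test took the 12 libraries as independent and did not pair root with aerial libraries. With the replicate number as a block in that test, the differences of BCAT4, IMD1, AK3 and MS2 were still called (adjusted p = 4.15e-06, 1.61e-05, 1.65e-06 and 0.000102).

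For other groups the organs differed in fewer members. Of 15 sulfur deficiency genes tested for the difference 3 were called, among them APR2, which rose more in roots (difference 0.96, adjusted p = 0.00174), whereas for APR1 (aerial part 2.25 ± 0.25) and SDI1 (4.44 ± 0.16) the difference was not called, with adjusted p = 0.737 and 0.0232. Of 29 phosphate genes 3 were called, with G3Pp1 at 0.39 ± 0.09 in the aerial part (difference 2.77, adjusted p = 2.33e-07). Nitrogen genes gave 9 of 29, with GLN1;2 at -0.12 ± 0.14 and NRT1.1 at -0.05 ± 0.11 in the aerial part (differences 2.64, adjusted p = 2.96e-06 and 1.82, adjusted p = 1.13e-05). SUC2 stood at -0.26 ± 0.15 in the aerial part (difference -1.58, adjusted p = 0.000332), and EMB1030 at -0.04 ± 0.07 (difference 2.83, adjusted p = 9.94e-08). THA1 rose in the aerial part, at 1.33 ± 0.28 (difference -5.11, adjusted p = 3.77e-06).

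**Figure D5:**
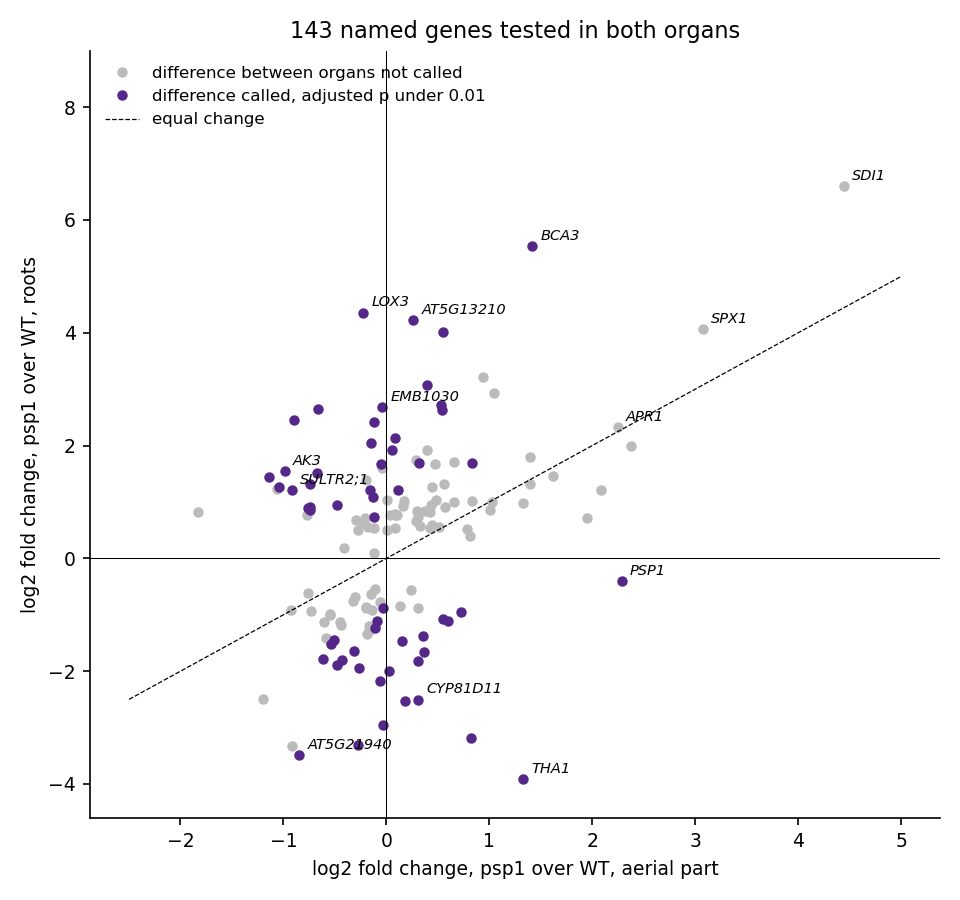
Log2 fold change of psp1 over WT in roots (vertical) against the aerial part (horizontal) for the 143 named genes tested in both organs; the dashed line marks equal change and purple points differ between organs in the interaction test. The 58 purple points lie mostly near 0 in the aerial part, and AK3 and SULTR2;1 (upper left) and THA1 (lower right) moved in opposite directions. Most of these genes were named for their change in roots, and some for a small p of this interaction test. Their number and position are therefore partly set by that choice. Over all 18759 genes tested for the difference 1.68% were called.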

How the data were processed

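Polyadenylated RNA of roots and aerial parts was sequenced as 75-base single reads on a SOLiD 5500XL, per the labels' protocols. The authors made the estimated counts and TPM values with kallisto 0.43.0 on the TAIR10 transcriptome, with a fragment length of 200 and SD of 30, per the labels' protocols. The estimated counts, 1 target per gene, were used here after rounding to whole numbers, and the deposited TPM columns were not tested. The submitters' processing notes also name edgeR and R 3.3.2.

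Genes passing filterByExpr were tested with the edgeR 4.0.16 exact test (R 4.3.3, TMM factors, tagwise dispersions) on the 3 WT and 3 psp1-labelled root libraries, with Benjamini-Hochberg adjustment over all tested genes and a threshold of 0.01. Standard errors come from the library spread of log2 CPM (prior count 2). The organ difference was an edgeR quasi-likelihood interaction over all 12 libraries. Alternatives were the quasi-likelihood test, DESeq2 1.42.0, other scalings and filters, equal depth and leaving out each library. The quasi-likelihood test was also run with a replicate block and with a fit to all 12 libraries.

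In counts simulated for psp1 against WT in roots over 17793 genes, 58 of 100 simulated 2-fold changes and 96 of 100 simulated 4-fold changes were called by the exact method, beside 7 false calls. The quasi-likelihood method called 53 and 92, beside 1 false call (0.685%). Far fewer genes were changed in the simulation than the 3172 called in the data, so the share of false calls in the data may differ.

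Named genes were those of the phosphorylated serine pathway, the 12 largest rises and 12 largest falls with non-overlapping groups and at least 50 mean counts, the 8 smallest adjusted p in each direction, up to 4 called members of each list, and, for the organ difference, the 5 genes per direction with the lowest p. GDPD1, SPX3, PHT1;1, PHT1;2, PR1, PR2, PR5, ICS1, SOG1, APL and CASP1 to CASP4 were named after their values were seen. The comparison and the lists were chosen with earlier results of these data known. Locus names and positions are from the RefSeq annotation of TAIR10.1, which matched 26719 of 27416 targets. The counting intervals cover counting error only. Whether the estimated counts used strand is not given in the sources used here, so PGDH2, which overlaps AT1G17744, is uncertain.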

Additional observations from a re-analysis of the deposited data

Results flagged for a closer look

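For 62 of the 191 named genes the psp1 effect differed between roots and the aerial part in the edgeR quasi-likelihood interaction test (adjusted p under 0.01). Over all 18759 genes tested for this difference 1.68% were called. The named genes were chosen mostly for their change in roots, and some for a small p of this same test. Their higher share is therefore no result about them. Values are the log2 fold change in roots minus that in the aerial part, so a positive value is a change higher in roots. For PSP1 the difference rests on a rise in the aerial part of the psp1-labelled libraries. In serine, methionine and sulfur metabolism these were -2.6 for PSP1, -5.11 for THA1, -0.92 for AT1G80380, 0.96 for APR2, 2.23 for SULTR2;1, 1.75 for MS2, 2.63 for AK3 and 2.29 for GSTU20. In glucosinolate synthesis they were 2.69 for BCAT4, 2.26 for CYP79F2, 2.41 for IMD1, -0.84 for CYP79B3, -1.58 for IGMT1 and 0.94 for UGT74B1. In phosphate, metal and nitrogen nutrition they were 2.77 for G3Pp1, 2.16 for PHT1;4, -1.54 for FER4, 1.47 for HMA2, 2.64 for GLN1;2, 1.82 for NRT1.1 and -1.31 for LBD39. In amino acid export, carbon starvation, phloem and photosynthesis they were 4.21 for UMAMIT36, -2.61 for UMAMIT17, -2.0 for UMAMIT20, -1.28 for DIN10, -0.75 for TPS8, -1.58 for SUC2, -1.03 for SEOA, -0.88 for LHCB3 and -1.53 for ATCG00820. In phenylpropanoid and flavonoid synthesis they were 1.47 for 4CL1, 1.31 for COMT1, 1.97 for AT4G36220, 1.2 for CAD4, 2.3 for FLS1 and 2.14 for F3H. Among hormone, defence and DNA damage genes they were 4.64 for LOX3, -1.92 for VSP2, -1.65 for IAA13, 3.44 for GH3.3, 1.52 for GH3.17, 1.7 for ARR4, -1.94 for WRKY45, 2.15 for GMI1 and 6.79 for NAC044. Among wall genes they were -1.08 for BGAL1, -1.22 for UDG4, 3.54 for EXPA8, 1.75 for EXPA4, -2.04 for XTH7 and -1.6 for XTH24. Among the other named genes they were 4.18 for BCA3, 2.83 for EMB1030, -2.96 for KNAT4, -2.72 for CYP81D11, 5.58 for AT5G58610, 4.85 for AT2G04050, -2.55 for AT5G21940, 4.02 for AT5G13210, -3.99 for AT5G15150, -2.82 for AT5G61590 and 3.41 for AT2G39980.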

How the results depend on the processing

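Replicate numbers did not pair the samples: deviations of same-numbered WT and psp1-labelled libraries correlated at 0.05, -0.05 and -0.06. With the replicate number as a block in the quasi-likelihood test, 1837 genes were called (857 rises, 980 falls). The same test without the block called 2232. Of the 1837, 1830 were also called by the exact test. Counts that moved by over 1.5 times from the exact test included UMAMIT falls (5), auxin rises (2), aquaporin falls (3) and WRKY rises (9). Others were glutathione rises (1), cytokinin rises (1), suberin rises (1), Casparian strip rises (2), root hair rises (2) and indolic glucosinolate rises (2). With the quasi-likelihood test fitted to all 12 libraries, 1832 genes were called (834 rises, 998 falls). The filter, TMM factors and dispersions of that fit all came from the 12 libraries. It gave 2 auxin rises, 3 aquaporin falls, 5 xyloglucan endotransglucosylase falls, 4 plastid-encoded falls, 2 flavonoid rises, 2 root hair rises and 0 Casparian strip rises. A stricter filter left 1 root hair rise. The quasi-likelihood test gave 2232 calls, 2 auxin rises and 3 aquaporin falls. DESeq2 gave 2803 calls and 3 auxin rises, and equal depth 2891 calls and 3 auxin rises. Calls numbered 3163 with DESeq2 size factors, 3324 with library totals, 3025 without a filter and 3079 with a stricter filter. Adding a 2-fold minimum left 1521 calls (8.55%). Leaving out each library in turn gave 2161 to 3288 calls, and among the lists whose counts moved the range was 5 to 10 for leaf photosynthesis falls, 2 to 4 for auxin rises, 5 to 8 for xyloglucan endotransglucosylase falls and 4 to 9 for plastid-encoded falls. Of the 69 list counts above 0, rises and falls taken apart, 42 moved by over 1.5 times in at least 1 alternative and 28 on leaving out 1 library; most of these counts are of 5 or fewer genes. Over the 29 main counts followed, 382 alternative values stayed within 1.5 times of the reported count and 26 did not. Of the 186 named genes called, 148 kept their call in every alternative run, 38 lost it in at least 1, and 0 reversed; PGDH1, not called, changed sign without psp1 roots replicate 3 (from -0.005 there to 0.192 without psp1 roots replicate 2). The causes of these shifts were not tested. In the simulated data 58 of 100 changes of 2-fold were recovered by the exact test, so changes of that size can be missed. There 4.35% of the calls of the exact test were false, so some calls near the threshold can be false too.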

Other observations

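Groups chosen after the values were seen are described here by counts, with no test of their own. Of 11 genes of root triterpene synthesis, which make the thalianol, marneral and arabidiol type compounds of Arabidopsis roots, all were tested, 8 rose and 0 fell. BARS1 (AT4G15370), an oxidosqualene cyclase, had 1.07, 1.32 and 0.730 CPM in WT and 18.4, 20.9 and 17.9 CPM in psp1-labelled roots, a log2 fold change of 4.07 ± 0.19 (edgeR exact test, adjusted p = 2.99e-30). THAS1, the thalianol synthase, and its cluster members CYP708A2 and CYP705A5 stood at 1.44 ± 0.13, 1.34 ± 0.07 and 1.2 ± 0.10. Their psp1-labelled libraries all lay above the WT libraries.

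Amino acid permeases, which import amino acids, rose in 5 of 6 tested cases. AAP1 (AT1G58360) had 7.79, 8.55 and 5.63 CPM in WT and 36.9, 42.5 and 36.0 CPM in psp1-labelled roots, a log2 fold change of 2.29 ± 0.18 (edgeR exact test, adjusted p = 2.82e-22). AAP6 stood at 1.78 ± 0.13 and AAP2, the most abundant of these 3, at 0.74 ± 0.05. The groups did not overlap for any of the 3.

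Over all genes tested 8.72% rose and 9.1% fell. Class III peroxidases gave 19 rises and 5 falls among 51 tested, with 12 rises without WT library 1 or psp1 library 2, 3 falls on leaving out any WT library and 1 fall without psp1 library 1. Their rises numbered 10 by the quasi-likelihood test, with or without the replicate block, and 6 when it was fitted to all 12 libraries. NAC factors gave 13 rises and 1 fall among 59, the fall being lost without WT library 2 or psp1 library 1. The fit to all 12 libraries gave 7 NAC rises. NBS-LRR receptors gave 21 rises and 8 falls among 98, with 5 falls without psp1 library 2. Their rises numbered 12 with the replicate block and 11 in the fit to all 12 libraries. Arabinogalactan proteins gave 0 rises and 6 falls among 29, beta-galactosidases and xylosidases 0 rises and 7 falls among 16, and histones 0 rises and 4 falls among 27. Aminoacyl-tRNA synthetases gave 6 rises and 3 falls among 50, shares near those over all genes, and 2 rises without WT library 3, psp1 library 1 or psp1 library 2.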
